A study of Arabidopsis thaliana with 2 samples.

Results

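The 50 genes described here are Arabidopsis thaliana flowering-time regulators other than FT and CO, the genes at the centre of the study. They are named regulators of the vernalization, autonomous, photoperiod, age and floral identity pathways, listed with earlier results of these data known. The bins of a gene are those of the deposited table that overlap it or the 3000 bases upstream of its annotated start, read by strand. Of the 50 genes, 31 have at least 1 listed bin, with 67 distinct bins in all among the 56184 listed bins of chromosomes 1 to 5, and 1 of these bins belongs both to MAF2 and to MAF3. The study examined the microProtein miP1a, which acts with CO and the co-repressor TOPLESS to delay flowering, and this experiment addressed whether its overexpression alters DNA methylation. Genomic DNA came from whole 12-d-old seedlings of miP1a-OX and of Col-0, with 1 library of each. The miP1a-OX plants carry a FLAG-miP1a transgene under the constitutive 35S promoter in the Col-0 background, and Col-0 is the wild type without it. Both were untreated and grew under long days, on MS plates according to the methods and on soil according to the sample records. All cell types of a seedling are pooled, so a small difference in all cells and a larger difference in part of them cannot be told apart.

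Plants integrate day length, cold, age and internal cues into the decision to flower. FLC and its MADS-box relatives hold flowering back together with SVP, genes of the autonomous pathway and of vernalization keep FLC low, and integrators such as SOC1 and the bZIP protein FD pass the florigen signal on to the meristem identity genes. Plant cytosines are methylated in the CG, CHG and CHH contexts, where H is any base but G. Gene bodies usually carry methylation in CG alone, whereas transposons and repeats carry it in every context, and FWA is the textbook flowering gene whose methylated repeats keep it silent in seedlings.

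Each bin spans 99 bases, and its methylation level is the number of methylated cytosine calls over all calls, with both strands and every context pooled. The following sequences are from the RefSeq TAIR10.1 genome, plus strand, 5′ to 3′, with CG sites in capitals. They are shown because the results turn on them: bins with large differences, bins with no CG site at all, the FWA bin, and the bins of GI and of MAF2 in which miP1a-OX had no methylated call. For FVE and FWA the bases of the untranslated exon are left out.
FVE, upstream bases of the bin at the gene start, chr2:8455701-8455755: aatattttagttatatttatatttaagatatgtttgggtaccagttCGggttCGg
FVE, far upstream bin, chr2:8452801-8452899: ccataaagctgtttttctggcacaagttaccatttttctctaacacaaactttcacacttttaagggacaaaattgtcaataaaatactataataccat
TEM2, upstream bin, chr1:25879501-25879599: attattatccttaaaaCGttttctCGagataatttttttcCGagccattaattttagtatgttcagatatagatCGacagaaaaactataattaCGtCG
FDP, upstream bin, chr2:7720601-7720699: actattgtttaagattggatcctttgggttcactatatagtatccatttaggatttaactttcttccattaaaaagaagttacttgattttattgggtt
FWA, intron bases of the bin near the gene start, chr4:13038418-13038499: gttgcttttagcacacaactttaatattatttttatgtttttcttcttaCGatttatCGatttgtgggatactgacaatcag
GI, intron bin, chr1:8066301-8066399: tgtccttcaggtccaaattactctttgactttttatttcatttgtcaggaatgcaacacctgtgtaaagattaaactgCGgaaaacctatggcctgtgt
MAF2, intron bin upstream of MAF3, chr5:25985401-25985499: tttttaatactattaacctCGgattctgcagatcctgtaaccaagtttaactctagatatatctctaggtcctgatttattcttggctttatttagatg
The far upstream FVE bin and the FDP bin hold 0 CG sites, whereas the TEM2 bin holds 6. In the FDP bin all 28 cytosines of both strands are in the CHH context of the reference.

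No bin of a flowering-time gene passed the difference threshold of the study, as was the case for most listed bins of the genome. By the thresholds of the study, p of at most 0.01 in Fisher's exact test and an absolute difference of at least 40 percentage points, and with at least 10 calls in each library, 0 of the 67 bins passed, against a background of 0.4% of the listed nuclear bins. At that background a count of 0 in 67 bins does not set these genes apart. The table lists only bins with p of at most 0.01, so all 67 bins meet that limit by construction and the p-value of a single bin describes that selection. The differences ran between -9.69 and 18.1 points, with a median of 1.57 points against 5.26 points over all listed nuclear bins. A difference of at least 10 points was seen in 9 bins, 13.4% of the 67 against 33.9% of the listed nuclear bins, and all 9 were higher in miP1a-OX. Among bins with a level of at least 10% over both libraries pooled, the shares were 53.3% and 60.2%. After Benjamini-Hochberg adjustment over the 1196690 bins of the genome, 23 bins still had p of at most 0.01 in Fisher's exact test, 34.3% of the 67 against 32.2% of the listed nuclear bins.

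**Figure D1:**
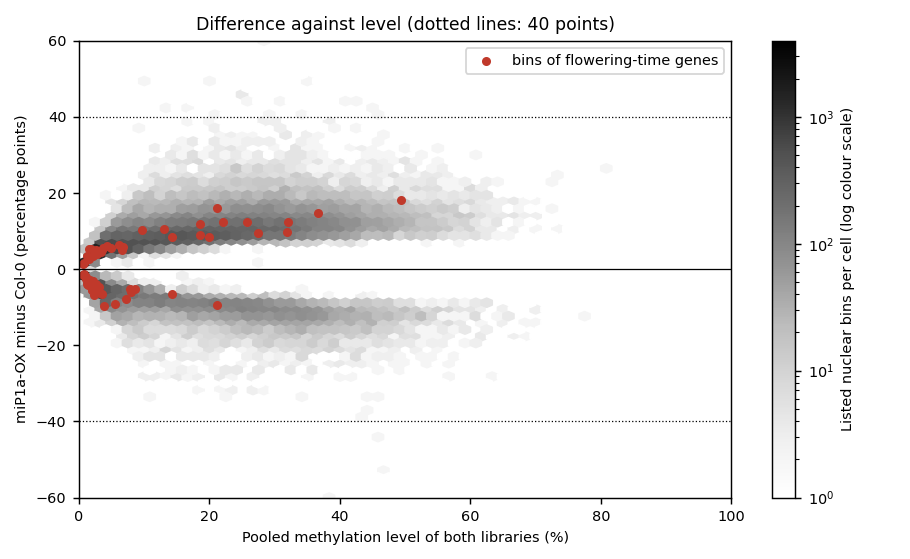
Difference between the libraries (miP1a-OX minus Col-0, percentage points) against the pooled methylation level of both libraries (%). Red points are the 67 bins of flowering-time genes, grey cells count all listed nuclear bins on a log colour scale, and values beyond the axis limits are not drawn. The red points lie between -9.69 and 18.1 points, inside the dotted lines at 40 points in either direction.

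Listed bins took up a smaller share of the windows of these genes than of the nuclear genome. The windows of the 50 genes hold 3142 bins of the genome, of which 2.13% are listed, against 4.72% of all nuclear bins. The nuclear share also counts bins outside genes and their upstream bases. No share over the windows of all genes is given, so whether these genes differ from other genes was not tested. A listed bin was found for 62% of the flowering-time genes, against 72.1% of the 27444 annotated protein-coding genes, although the windows of the flowering-time genes were longer, with a median of 60.5 bins against 52. Of the repressors, MAF4, MAF5, TEM1, AP2, TOE1, TOE3 and SMZ are not listed, and of the integrators SOC1 (AT2G45660) and FD (AT4G35900). FKF1, CDF1 and CDF3 of the photoperiod pathway, AP1 (AT1G69120) and LFY (AT5G61850) of the meristem identity genes, FLD of the autonomous pathway, TFL1 and MFT of the FT relatives, and SPL5 and SPL9 complete the 19 genes without a listed bin. The table gives no level for these genes in either library.

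**Figure D2:**
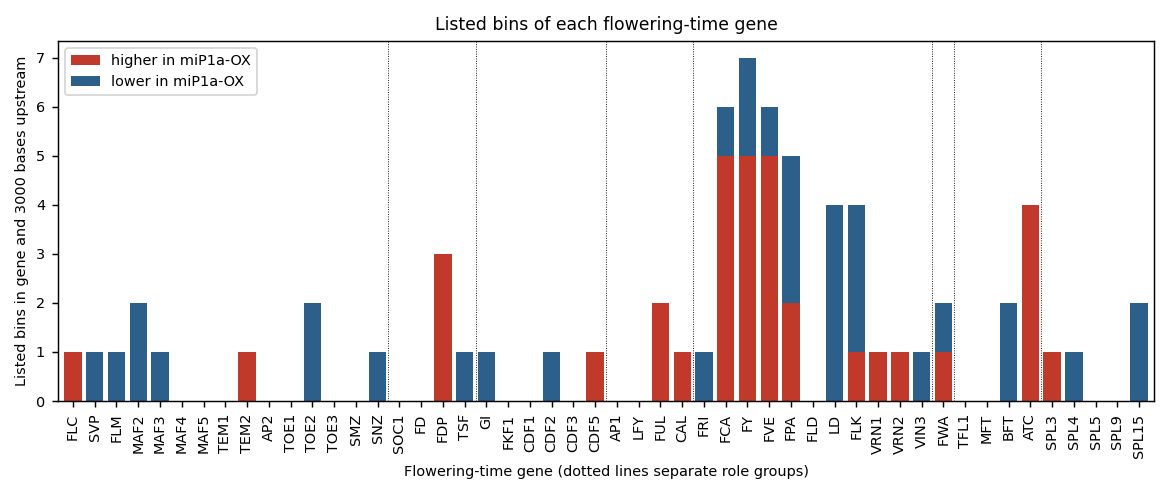
Number of listed bins in each of the 50 flowering-time genes and the 3000 bases upstream, with bins higher in miP1a-OX in red and bins lower in miP1a-OX in blue. FY has the most with 7 bins, followed by FVE and FCA with 6 each, and 19 genes have none.

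The direction differed between strongly and weakly methylated bins, and between bins inside and outside genes. Of the 67 bins, 35 were higher and 32 lower in miP1a-OX, so 52.2% were higher, against 64% of the listed nuclear bins. A pooled level of at least 10% was reached by 15 of the bins, whereas 52% of the listed nuclear bins reach it. Among these 15, 13 were higher in miP1a-OX, or 86.7%, against 74.7% of such bins in the nuclear genome. Among the 52 bins below that level, 22 were higher and 30 lower, so 42.3% were higher, against 52.4%. Bins within an annotated gene were higher in 18 of 48 cases, 37.5% against 51.4%, and bins in no annotated gene in 17 of 19 cases, 89.5% against 78.2%. Each of these splits runs in the same direction over the listed nuclear bins, and whether the flowering-time genes differ from them was not tested. All 11 bins that combine a level of at least 10% with a place outside annotated genes had the higher level in miP1a-OX, a direction that 82.3% of such bins in the nuclear genome share. Of the 44 bins under 10% within an annotated gene, 16 were higher, 36.4% against 44.4%.

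**Figure D3:**
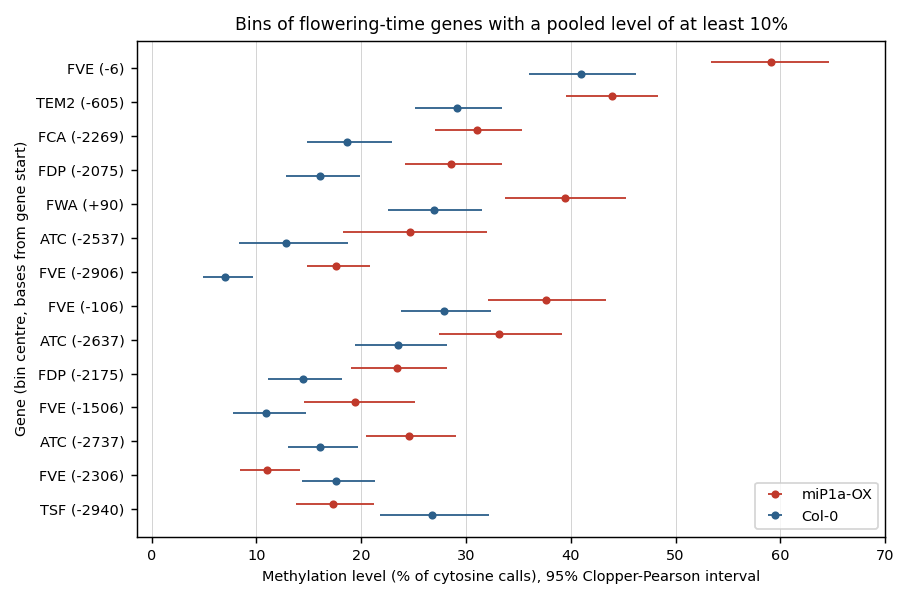
Methylation level (% of cytosine calls) of 14 of the 15 bins with a pooled level of at least 10%, in miP1a-OX (red) and in Col-0 (blue), ordered by the difference. Bars are 95% Clopper-Pearson intervals, which cover counting error only, and the number beside each gene is the distance of the bin centre from the gene start in bases. In 12 of the 14 bins the miP1a-OX point lies to the right, and the exceptions are the TSF bin and an upstream bin of FVE.

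Many of the weakly methylated bins held few methylated calls. In 38 of the 67 bins, 56.7% against 29.9% of the listed nuclear bins, the methylated calls of the higher library numbered no more than 1 fully methylated DNA fragment could supply, and all 38 were among the 52 bins under 10%. Among bins under 10% alone, the shares were closer, with 73.1% against 60.3% of such bins in the nuclear genome. For bins under 10% within an annotated gene they were 77.3% and 72.3%. When the methylated calls of 1 such fragment were removed, 8 of the 67 bins still had p of at most 0.01 in the same direction by Fisher's exact test, namely the bins of GI and TEM2, the FDP bin at 7720701, the FVE bins at 8452801 and 8455701, 2 upstream bins of FCA, and the MAF2 bin at 25983301. The share of all listed nuclear bins that hold under this removal is not given, so 8 of 67 is not read as few or many. When each read was counted about once, Fisher's exact test gave p of at most 0.01 for 0 of the 67 bins and p under 0.05 also for 0. A bin then holds about as many counts as its depth, with a median of 22.4 in miP1a-OX and 23.2 in Col-0, which leaves little room for differences of this size to pass, so these zeros do not bear on whether a difference is stable. With 1 library of each genotype there was no replicate check, so every p-value here sets 1 library against the other, and the spread between plants of a genotype is unknown.

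The depth was similar in both libraries. Over the 67 bins the number of calls ran between 131 and 670 in miP1a-OX and between 112 and 595 in Col-0, with medians of 348 in miP1a-OX and 358 in Col-0. Listed bins of the chloroplast genome, which is unmethylated and so reads incomplete conversion, had a level of 0.177% in miP1a-OX and 0.29% in Col-0 over 70 bins, and listed bins of the mitochondrial genome 1.69% in miP1a-OX and 2.69% in Col-0 over 477 bins. These organelle bins were also listed for their p-value. Their levels are shaped by that selection and are no unbiased conversion rate of either library. Over the 52 member bins under 10% the median level was 1.09% in miP1a-OX and 3.53% in Col-0, and the part of incomplete conversion in these levels was not tested. No methylated call was seen in miP1a-OX in 16 bins, 23.9% against 12.1% of the listed nuclear bins, and in Col-0 in 9 bins, 13.4% against 7.97%. Among bins under 10% alone, these shares were 30.8% against 25% in miP1a-OX and 17.3% against 16.2% in Col-0. Where a library had none, the upper limit that 3 calls would give is stated in its place, and these limits and all intervals cover counting error only.

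Autonomous pathway genes had listed bins at about the share of the whole nuclear genome, and the other members at a lower share. This pathway lowers FLC expression independently of day length, and 6 of its 7 members had 32 distinct bins, 5.47% of the 585 bins in their windows, against 35 bins or 1.37% of 2557 in the windows of the other 43 genes and 4.72% of all nuclear bins. Some of the 32 bins lie in neighbouring genes, and no share over the windows of all genes is given. Whether the pathway differs from the other members was not tested. In direction the 32 bins were mixed, with 18 bins higher and 14 lower in miP1a-OX, where 64% of the listed nuclear bins were higher. FLD (AT3G10390), a histone demethylase homologue, was the member without a listed bin.

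FVE (AT2G19520), a WD40 protein that works with histone deacetylases, had the largest difference of all. The bin over its start (chromosome 2, 8455701 to 8455799), with 55 bases upstream of the transcript and 44 in the untranslated first exon, had 185 of 313 calls methylated in miP1a-OX (59.1%, interval 53.4% to 64.6%) and 151 of 368 in Col-0 (41%, interval 36% to 46.2%). The difference was 18.1 points (Fisher's exact test, p = 2.69e-06, adjusted p = 0.000411). The intervals do not overlap, but the bin was listed for its p-value and calls of a read are not independent, and with each read counted about once Fisher's exact test gave p = 0.248. CG cytosines make up 20.7% of the cytosines in this bin, less than the level of either library. The neighbouring bin upstream, at 8455601, had 111 of 295 calls methylated in miP1a-OX (37.6%) and 121 of 433 in Col-0 (27.9%), and it has 4 near copies elsewhere in the genome. Over both bins together the level was 48.7% in miP1a-OX and 34% in Col-0. Farther upstream, the bin at 8452801 that was printed without a CG site had 115 of 653 calls methylated in miP1a-OX (17.6%) and 34 of 485 in Col-0 (7.01%), a difference of 10.6 points (Fisher's exact test, p = 1.12e-07, adjusted p = 2.99e-05). Its centre lies 2906 bases before the gene start and in no annotated gene. Of the remaining 3 FVE bins, the bin at 8453801 had 8.06% in miP1a-OX and 2.08% in Col-0, and the bin at 8454201 had 19.4% in miP1a-OX and 10.9% in Col-0. The bin at 8453401, which lies in the neighbouring gene LBD8, went the other way, with 11% in miP1a-OX and 17.6% in Col-0. The bins at 8453801 and 8453401 each have 1 near copy on chromosome 1, with 92.8% and 90.8% identity.

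FCA (AT4G16280), an RNA-binding protein that promotes early polyadenylation of the FLC antisense transcript, carried its larger differences upstream and outside any annotated gene. At 9217201 on chromosome 4, centred 2269 bases upstream, the level was 31% in miP1a-OX (154 of 496 calls, interval 27% to 35.3%) and 18.6% in Col-0 (70 of 377, interval 14.8% to 22.9%), a difference of 12.5 points (Fisher's exact test, p = 3.17e-05, adjusted p = 0.00296). The bin at 9217501 had 5.44% in miP1a-OX and 0.962% in Col-0, and the bin at 9217701 had 9.92% in miP1a-OX and 3.5% in Col-0. All 4 upstream bins of FCA were higher in miP1a-OX. Within the gene, in untranslated exon sequence, the bin at 9213201 was higher in miP1a-OX, with 11% against 5.07% in Col-0, and the bin at 9212301 was lower, with 0.595% against 3.6% in Col-0. Without the calls of 1 fragment, both of these and the upstream bin at 9217501 turned direction.

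FY (AT5G13480), the polyadenylation factor that works with FCA, had 7 bins, 5 of them higher in miP1a-OX. Neighbouring bins from 4330901 to 4331299 on chromosome 5, in exons and introns near the start of the gene, formed a run of 4 with 66 of 1360 calls methylated in miP1a-OX (4.85%, interval 3.77% to 6.13%) and 10 of 1589 in Col-0 (0.629%, interval 0.302% to 1.15%). In each of the 4, removing the methylated calls of 1 fragment turned the direction, and neighbouring bins can share a read. The lower bins of FY were the one at 4330301, with 0.622% in miP1a-OX and 4.6% in Col-0, and the one at 4334501 in an upstream pseudogene, with 0 of 304 calls in miP1a-OX (up to 0.987%) and 16 of 316 in Col-0 (5.06%).

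FPA (AT2G43410), an RNA-binding protein of the same pathway, had 2 bins higher and 3 lower in miP1a-OX. The most negative difference of any member was at 18032801 on chromosome 2, 1595 bases upstream and within the neighbouring gene AT2G43420, where 0 of 341 calls were methylated in miP1a-OX (up to 0.88%) against 22 of 227 in Col-0 (9.69%). Fisher's exact test gave p = 9.1e-10 and an adjusted p = 4.91e-07 for it. However, 1 fragment could supply its 22 methylated calls, and without them the difference was 0 points. In the coding bin at 18028201 the order was the opposite, with 7 of 131 calls in miP1a-OX (5.34%) and 0 of 346 in Col-0 (up to 0.867%). Here too 1 fragment could supply the 7 methylated calls, and without them the difference was 0 points. The other 3 FPA bins differed by at most 4.79 points.

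LD (AT4G02560), a homeodomain protein, had 4 bins and all were lower in miP1a-OX, although 3 of them lie in the upstream neighbour CUL1, which encodes a cullin of SCF ubiquitin ligases. At 1130501 on chromosome 4 there were 0 of 428 calls in miP1a-OX (up to 0.701%) and 25 of 475 in Col-0 (5.26%). Across 1130801 to 1130999 the level was 0.349% in miP1a-OX and 3.98% in Col-0, and the coding bin of LD itself, at 1126601, had 4.92% in miP1a-OX and 10.2% in Col-0. FLK (AT3G04610), a KH-domain RNA-binding protein, had 1 bin higher and 3 lower in miP1a-OX, all within the gene. Its intron bin at 1252601 on chromosome 3 had 0 of 425 calls in miP1a-OX (up to 0.706%) and 28 of 449 in Col-0 (6.24%; Fisher's exact test, p = 6.28e-09, adjusted p = 2.59e-06). Without the methylated calls of 1 fragment the difference in this bin was -1.17 points (Fisher's exact test, p = 0.0618).

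The vernalization genes and FRI each had 1 bin, all with low levels. VRN1 (AT3G18990), a plant-specific DNA-binding protein, had 8 of 237 calls in miP1a-OX (3.38%) and 0 of 427 in Col-0 (up to 0.703%). VRN2 (AT4G16845), a Polycomb subunit, had 24 of 485 in miP1a-OX (4.95%) and 0 of 198 in Col-0 (up to 1.52%). The direction was the opposite for VIN3 (AT5G57380), the cold-induced PHD finger protein, with 0 of 322 in miP1a-OX (up to 0.932%) and 7 of 163 in Col-0 (4.29%). FRI (AT4G00650), which activates FLC and is non-functional in the Col-0 accession, had 0 of 336 in miP1a-OX (up to 0.893%) and 6 of 158 in Col-0 (3.8%). In each of these bins 1 fragment could supply the methylated calls, and without them the difference was 0 points.

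**Figure D4:**
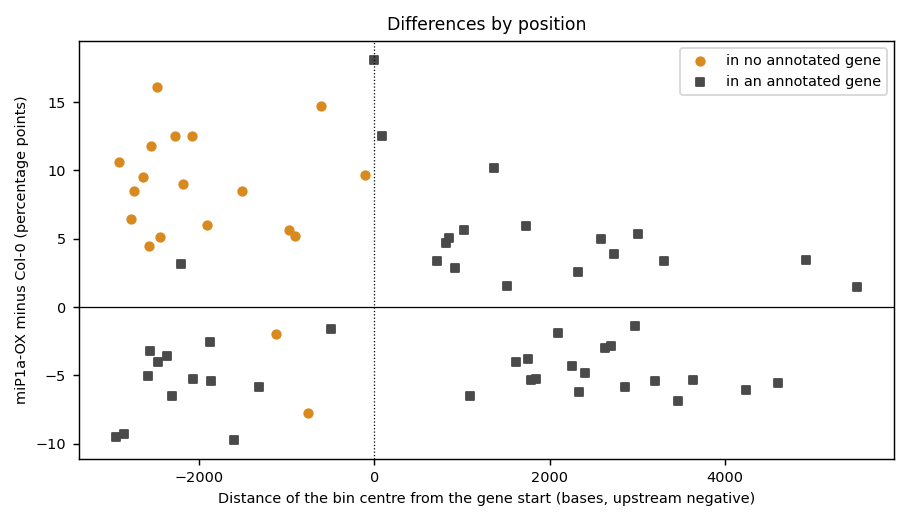
Difference between the libraries (miP1a-OX minus Col-0, percentage points) against the distance of the bin centre from the gene start in bases, upstream negative, with bins in no annotated gene as orange circles and bins in an annotated gene as grey squares. The bin shared by MAF2 and MAF3 is drawn for both genes. Of the 19 bins in no annotated gene 17 lie above 0, and of the 48 in an annotated gene 18 do.

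The 15 floral repressors had 9 bins in 8 genes, 2 higher and 7 lower in miP1a-OX. These are 0.955% of the bins in their windows, against 4.72% of all nuclear bins, and this difference was not tested. Among the listed nuclear bins under 10% within an annotated gene, 55.6% were lower in miP1a-OX, and with 9 bins no direction is read from the repressors. FLC (AT5G10140), the central MADS-box repressor, had 1 bin, centred 902 bases upstream at 3180301 on chromosome 5, with 8 of 153 calls in miP1a-OX (5.23%) and 0 of 287 in Col-0 (up to 1.05%). This bin holds no cytosine in CG or CHG, and its richer strand holds 8 cytosines, so that 1 fragment could supply all 8 methylated calls. Its relatives FLM and MAF2, and SVP, the MADS-box partner of FLC, were lower in miP1a-OX. FLM (AT1G77080) had 1 of 670 calls in miP1a-OX (0.149%) and 7 of 467 in Col-0 (1.5%), and SVP (AT2G22540) had 1 of 342 in miP1a-OX (0.292%) and 11 of 347 in Col-0 (3.17%). At MAF2 (AT5G65050) the bin in an untranslated exon, at 25983301 on chromosome 5, had 1 of 456 calls in miP1a-OX (0.219%) and 32 of 476 in Col-0 (6.72%; Fisher's exact test, p = 5.84e-09, adjusted p = 2.43e-06). The intron bin at 25985401, printed with the sequences and also 1859 bases upstream of MAF3 (AT5G65060), had 0 of 537 calls in miP1a-OX (up to 0.559%) and 17 of 314 in Col-0 (5.41%), and 1 fragment could supply the 17 methylated calls.

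TEM2 (AT1G68840), a RAV-type repressor of FT, had the highest level among the 9 listed bins of repressors. Its bin, centred 605 bases upstream at 25879501 on chromosome 1 in no annotated gene, had 225 of 513 calls methylated in miP1a-OX (43.9%, interval 39.5% to 48.3%) and 143 of 491 in Col-0 (29.1%, interval 25.1% to 33.4%), a difference of 14.7 points (Fisher's exact test, p = 1.64e-06, adjusted p = 0.000273). With 6 CG sites, CG makes up 42.9% of its cytosines. The AP2-like repressors had 3 bins, all lower in miP1a-OX, and AP2, TOE1, TOE3 and SMZ had none. TOE2 (AT5G60120) had 1 of 493 calls in miP1a-OX (0.203%) and 20 of 331 in Col-0 (6.04%) at 24210501 on chromosome 5, and 0 of 364 in miP1a-OX (up to 0.824%) and 12 of 174 in Col-0 (6.9%) at 24211101. Both TOE2 bins have a near copy on chromosome 3, and from which copy the reads came was not tested. SNZ (AT2G39250) had 1 of 485 in miP1a-OX (0.206%) and 6 of 216 in Col-0 (2.78%), within the neighbouring gene AT2G39260.

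Photoperiod genes had 3 bins. GI (AT1G22770), the clock-controlled protein that works with FKF1 to remove the CDF repressors of CO, had 0 of 557 calls in miP1a-OX (up to 0.539%) and 28 of 502 in Col-0 (5.58%, interval 3.74% to 7.96%) in a mostly intronic bin at 8066301 on chromosome 1 (Fisher's exact test, p = 5.57e-10, adjusted p = 3.19e-07). The 28 methylated calls exceed the 20 cytosines on the richer strand of the bin. CDF5 (AT1G69570), a DOF repressor of CO, had 45 of 303 calls in miP1a-OX (14.9%) and 15 of 320 in Col-0 (4.69%), a difference of 10.2 points in coding sequence that overlaps the long non-coding RNA AT1G69572. Without the methylated calls of 1 fragment the CDF5 difference was 2.84 points (Fisher's exact test, p = 0.169). CDF2 (AT5G39660), of the same family, was lower in miP1a-OX, with 6 of 222 calls (2.7%) against 32 of 307 in Col-0 (10.4%), in an upstream bin with 13 near copies elsewhere in the genome.

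Among the integrators, SOC1 and FD had no listed bin. FDP (AT2G17770), the bZIP paralogue of FD, had 3 upstream bins, each higher in miP1a-OX and each in no annotated gene. The bin printed without a CG site, at 7720601 on chromosome 2, had 81 of 346 calls methylated in miP1a-OX (23.4%, interval 19% to 28.2%) and 59 of 410 in Col-0 (14.4%, interval 11.1% to 18.2%; Fisher's exact test, p = 0.00187, adjusted p = 0.065). In the next bin, at 7720701, 114 of 398 calls were methylated in miP1a-OX (28.6%) and 71 of 441 in Col-0 (16.1%), 12.5 points higher in miP1a-OX (Fisher's exact test, p = 1.35e-05, adjusted p = 0.0015). Both together gave 26.2% in miP1a-OX and 15.3% in Col-0. TSF (AT4G20370), the closest relative of FT, had its bin within the neighbouring gene LSD1, 2940 bases upstream, and there the level was lower in miP1a-OX, with 75 of 434 calls (17.3%) against 79 of 295 in Col-0 (26.8%).

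FWA (AT4G25530), the imprinted homeodomain gene that delays flowering when it loses methylation, had 1 bin higher and 1 lower in miP1a-OX. The bin at 13038401 on chromosome 4, centred 90 bases inside the annotated gene and mostly intronic, had 113 of 287 calls methylated in miP1a-OX (39.4%, interval 33.7% to 45.3%) and 108 of 402 in Col-0 (26.9%, interval 22.6% to 31.5%), a difference of 12.5 points (Fisher's exact test, p = 0.000672, adjusted p = 0.0308). A near copy of it lies at 13038612 to 13038709, 112 bases further on, with 98% identity over 99 aligned bases, and from which copy the reads came was not tested. In the coding sequence at 13040401 there were 0 of 408 calls in miP1a-OX (up to 0.735%) and 8 of 421 in Col-0 (1.9%).

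The meristem identity genes AP1 and LFY had no listed bin, and those of CAL and FUL were weakly methylated and higher in miP1a-OX. CAL (AT1G26310), a MADS-box paralogue of AP1, had 11 of 348 calls in miP1a-OX (3.16%) and 0 of 368 in Col-0 (up to 0.815%), within the neighbouring gene AT1G26320. FUL (AT5G60910), a MADS-box gene of meristem and fruit identity, had 2.86% in miP1a-OX and 0.291% in Col-0 in an intron, and 6 of 382 calls in miP1a-OX (1.57%) against 0 of 443 in Col-0 (up to 0.677%) in a mostly coding bin.

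Of the FT-like genes outside the florigens, ATC and BFT, both known as floral repressors, had 6 bins, and TFL1 and MFT had none. Upstream of ATC (AT2G27550), 4 neighbouring bins from 11770401 to 11770799 on chromosome 2 were all higher in miP1a-OX, with 242 of 1097 calls (22.1%, interval 19.6% to 24.6%) against 190 of 1280 in Col-0 (14.8%, interval 12.9% to 16.9%). The 4 bins were each listed for their p-value and neighbouring bins can share a read, so the pooled intervals describe that selection. Their adjusted p in Fisher's exact test ran between 0.0134 and 0.192. Removing the methylated calls of 1 fragment left differences of 6.24, 6.82, 8.04 and 0 points. Each of the 4 has between 3 and 7 near copies elsewhere in the genome, and from which copy the reads came was not tested. Both BFT (AT5G62040) bins lie in the neighbouring gene AT5G62030 and were lower in miP1a-OX, with 0 of 174 calls (up to 1.72%) against 24 of 259 in Col-0 (9.27%) at 24919901 on chromosome 5, and 0.322% against 3.56% in Col-0 at 24920201. At 24919901, 1 fragment could supply the 24 methylated calls, and without them the difference was 0 points.

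SPL genes, the targets of miR156 in the age pathway, had 4 bins in SPL3, SPL4 and SPL15. SPL3 (AT2G33810) had 43 of 503 calls in miP1a-OX (8.55%) and 11 of 316 in Col-0 (3.48%) in a bin that overlaps the long non-coding RNA AT2G33815. SPL4 (AT1G53160) was lower, with 0.185% in miP1a-OX and 2.14% in Col-0. SPL15 (AT3G57920) was lower in both of its bins, with 6.11% in miP1a-OX and 11.4% in Col-0 at 21444201 on chromosome 3, and 0 of 339 calls in miP1a-OX (up to 0.885%) and 13 of 222 in Col-0 (5.86%) at 21447301, and both bins overlap a neighbouring gene.

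**Figure D5:**
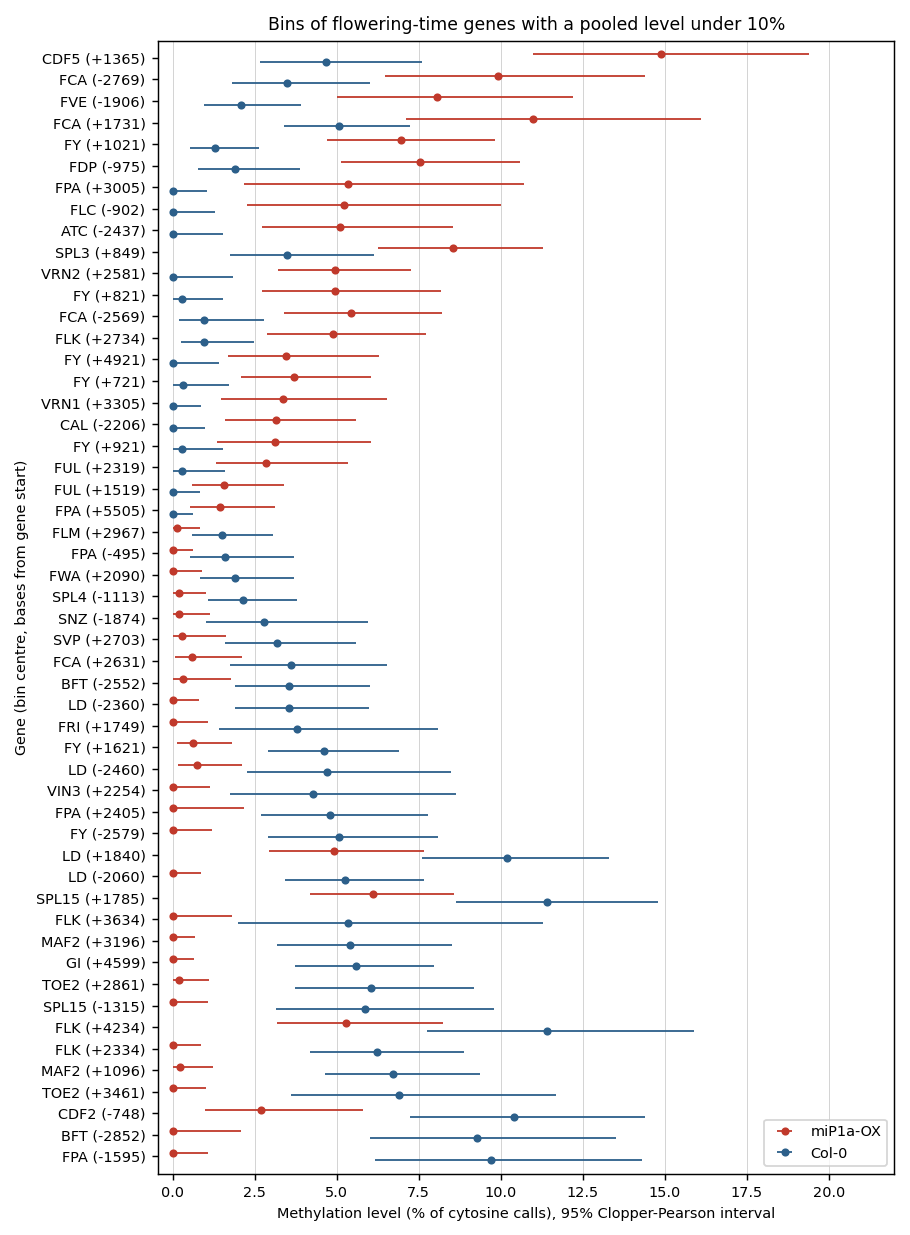
Methylation level (% of cytosine calls) of the 52 bins with a pooled level under 10%, in miP1a-OX (red) and in Col-0 (blue), ordered by the difference, with 95% Clopper-Pearson intervals. The number beside each gene is the distance of the bin centre from the gene start in bases, and the MAF2 bin at +3196 is also the MAF3 bin. In 22 bins the miP1a-OX point lies to the right and in 30 to the left, and 16 bins have no methylated call in miP1a-OX and 9 have none in Col-0.

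Sequence context varied among the bins. Of the 67 bins, 10 hold no cytosine in CG, as do 17.5% of the listed nuclear bins, and 7 of the 10 were higher in miP1a-OX, 70% against 73.6% of such bins in the nuclear genome. In 7 bins every cytosine was in CHH, and 6 of these were higher in miP1a-OX, against 74.1% of such bins in the nuclear genome. They are bins of FDP, FVE, FCA, ATC, FLC and FUL, and that of CDF2 was lower. Among the 15 bins of at least 10%, the level of the higher library exceeded the share of cytosines in CG in 13, and that of the lower library in 7, whereas 93% and 73.4% of such bins in the nuclear genome did so. By the annotation of the member gene, 33 bins were mainly upstream, 13 in introns, 12 in coding exons and 9 in untranslated exons. Upstream bins were higher in miP1a-OX in 19 of 33 cases, coding bins in 7 of 12, intron bins in 6 of 13 and untranslated exon bins in 3 of 9. Of all listed nuclear bins 64% were higher. No share by these classes is given for them, so no class is set apart here.

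A further 23 flowering genes, among them Polycomb subunits, FRI partners, other SPL genes and microRNA genes, were counted in the same way. Of these, 18 had 44 listed bins, 24 higher and 20 lower in miP1a-OX, with a median difference of 2.1 points, and VRN5, VEL1, LHP1, SPL11 and MIR172A had none. Over the whole table a listed bin was found for 72.1% of the protein-coding genes, 64% of the listed nuclear bins were higher and their median difference was 5.26 points, and 2.93% of the bins in the windows of the 23 genes were listed, against 4.72% of all nuclear bins. As among the members, 0 of the 44 bins passed the threshold of 40 points with p of at most 0.01 in Fisher's exact test, against the same background of 0.4%. The largest difference was in the window of SPL2, another target of miR156, where 157 of 415 calls were methylated in miP1a-OX (37.8%) and 70 of 347 in Col-0 (20.2%; Fisher's exact test, p = 9.13e-08). ELF6, a histone demethylase, had a bin with 22.4% in miP1a-OX and 9.22% in Col-0, although 3 of its 5 bins were lower in miP1a-OX. FIE, a Polycomb subunit, had a bin with 34.3% in miP1a-OX and 22.3% in Col-0. SUF4 of the same list had 2 of its 3 bins lower, with 22.5% in miP1a-OX and 32.1% in Col-0 in the bin with its largest difference. SWN, a Polycomb histone methyltransferase, had 6 of its 7 bins higher in miP1a-OX, and its homologue CLF had 2 of its 3 bins higher. The CLF bin with the largest difference was the lower one, with 19.6% in miP1a-OX and 28% in Col-0.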

How the data were processed

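Whole-genome bisulfite sequencing of 1 miP1a-OX and 1 Col-0 library was used. Per the labels, BS-Seeker2 2.1.0 and the TAIR9 assembly were used, and the methods add Bowtie2 and Methpipe. The authors deposited, per bin and library, counts of methylated and unmethylated cytosine calls without normalization, and 24269108 calls of miP1a-OX and 24091300 of Col-0 fall in the 56731 listed bins. The authors' fractions and p-values hold their own comparison and were not used, nor was their merged list, and 5 columns of values per library were left out in all. Genes come from TAIR10.1, in which the C plus G of a bin matched the deposited number of cytosines in 100% of the 56184 listed nuclear bins.

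Levels, Fisher's exact test (two-sided) and 95% Clopper-Pearson intervals were computed with python 3.11.15, scipy 1.17.1, numpy 2.4.6 and pandas 2.3.3, and figures with matplotlib 3.10.9. Bins have 99 bases and a spacing of 100 bases. At least 10 calls were required in each library, and a level of 0 was given the limit of 3 calls. A bin was called with p of at most 0.01 and a difference of at least 0.4. Near copies have at least 90% identity over at least 80 bases (blastn 2.17.0). A fragment was taken to hold as many cytosines as the richer strand of the bin. The test was tested on simulated data. Every member was named, other genes only where they overlap a member bin or stand in the list of 23 other flowering genes. An upstream bin of FCA enters the counts and is not reported here by itself. The members and lists were chosen with earlier results of these data known. Alternatives were other call minimums, difference thresholds and windows, Benjamini-Hochberg adjustment, thinning of the deeper library, removal of 1 fragment, division of calls by depth and centring, and, chosen after seeing the data, counting each read about once.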

Additional observations from a re-analysis of the deposited data

How the results depend on the processing

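No bin of a flowering-time gene passed the difference threshold under call minimums of 1, 20 or 50, differences of 0.3 or 0.5, 1000 bases upstream or the gene body alone. The 31 genes with a listed bin became 24 with 1000 and 27 with 2000 bases upstream, 20 with the gene body alone and 15 after Benjamini-Hochberg adjustment. The share of all protein-coding genes with a listed bin was not computed for these alternatives, so whether these decreases are particular to the flowering-time genes was not tested. The 35 bins higher in miP1a-OX became 21 of 41 with 1000 bases upstream, 23 of 47 with 2000, 17 of 35 with the gene body alone, 10 of 23 after adjustment and 20 of 67 after centring on the median difference of 5.26 points. The share over all listed nuclear bins is not given for these settings. Centring on the median of the listed nuclear bins makes higher and lower bins about equally frequent among them by construction. Of the 67 bins with p of at most 0.01 in Fisher's exact test, 45 held after thinning of the deeper library, 23 after adjustment, 8 without the methylated calls of 1 fragment, 0 when each cytosine was counted about once and 0 when each read was, an alternative chosen after seeing the data. Both of these leave too few counts per bin to bear on stability, and in both 0 bins had p under 0.05 in Fisher's exact test, against 64 after thinning and 13 without the calls of 1 fragment. For thinning and for removal of 1 fragment no share over all listed nuclear bins is given.

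Removing the calls of 1 fragment reversed 18 bins, to 0.185 points at SPL4, 0.149 at FLM, 0.292 at SVP, -0.12 at SPL3, 0.206 at SNZ, 0.322 at BFT, 0.73 at LD and -0.291 at FUL. It gave 3.13 and -0.971 points at FLK, 0.595, -5.07 and -0.962 at FCA, and 0.622, -0.0121, -0.275, -0.279 and -0.31 at FY. Other bins fell to 0 points, among them those of CAL, VRN1, VRN2, VIN3 and FRI. The same held for LD at 1130501, TOE2 at 24211101, SPL15 at 21447301 and BFT at 24919901. Centring reversed 15 bins, to -2.1 points at CAL, -0.166 at ATC, -0.196 at SPL3, -3.82 at FPA, -1.35 at FLK, -1.89 at VRN1, -0.785 at FCA, -0.315 at VRN2 and -0.035 at FLC, and to -1.79, -2.43, -0.579 and -1.86 at FY and -2.7 and -3.69 at FUL. All of these follow from the construction of the alternative.

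No paired analysis was possible because there is only 1 library per genotype, which also leaves no replicate to drop.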
